A study of Mus musculus with 6 samples.

Results

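Notch signaling genes were followed in whole lungs of TNF+ and TNF- mice: the 4 receptors Notch1, Notch2, Notch3 and Notch4, the 4 ligands Dll1, Dll4, Jag1 and Jag2, and the 2 target genes Hey1 and Hes1. These 10 genes were taken by their symbols from the 49568 gene symbols of the deposited table of counts, and all 10 were found there. TNF+ mice (TNF-Tg) carried a human TNF transgene, and TNF- mice (WT) were their wildtype littermates without it. All were females of a C57BL/6 background at 4 months of age, with an otherwise wildtype genotype, and 3 lungs of each group were sequenced, each from a different animal. The cells that transcribe the transgene and its promoter are not given in the sources used here.

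In Notch signaling, a ligand on the surface of a cell binds a receptor on its neighbor, proteases of the ADAM family and gamma-secretase cut the receptor, and the freed intracellular domain enters the nucleus, where it joins the DNA-binding protein RBPJ and a Mastermind coactivator to switch on targets such as Hes1 and Hey1. In lung, Notch4 and Dll4 are known mainly from endothelial cells, Notch3 from the smooth muscle cells and pericytes around vessels, Notch2 also from myeloid and B cells, and Notch1 and the Jagged ligands from several cell types, the airway epithelium among them. Signaling through these genes orders arterial identity, vessel branching, the smooth muscle coat of pulmonary arteries and the choice between secretory and ciliated airway cells.

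The total counts lay between 25396923 and 30049463 in TNF+ lungs and between 31400978 and 32529408 in TNF- lungs, so that 3 counts, taken as the smallest detectable level, stood at 0.0922 to 0.118 CPM (counts scaled to a common library total), counting error only. Every member was far above this level, the lowest being Dll1 with 278 counts in TNF+ replicate 1. The mouse Tnf row held 106, 213 and 405 counts in TNF+ lungs and 16, 14 and 35 in TNF- lungs; the transgene is human and has no row of its own. 2 libraries stood apart. In TNF- replicate 1 all 12 squamous epithelium markers and all 10 skeletal muscle markers had their highest level, with summed levels of 3632 and 2145 CPM against at most 60.9 and 53.2 CPM in the other lungs. In TNF+ replicate 1 the gene Gm42418 took 5.22% of the counts, against at most 0.274% in the other lungs. The alveolar marker Sftpc, the most abundant of the lung epithelial list, had at least 286171 counts in every lung, and no marker of the epithelial, endothelial, smooth muscle or pericyte lists was under 3 counts in every lung.

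Stretches upstream of the annotated start were available in RefSeq for 8 of the 10 members, in 9 windows of 250 bases on GRCm38.p6. The target genes Hey1 and Hes1 had none, so no motif was searched upstream of them. Those of the ligand Dll4, of Notch2 and of the receptors Notch3 and Notch4 are shown because these receptors moved in opposite directions and Dll4 fell with Notch4. Each reads 5′ to 3′ on the strand of its gene and ends at the base before the RefSeq start, which differs from the GENCODE start given with the gene for some members. Capitals mark the N box, CACNAG or on the other strand CTNGTG, the site that HES proteins are known to bind.
Dll4, chr2:119325534-119325783, plus strand: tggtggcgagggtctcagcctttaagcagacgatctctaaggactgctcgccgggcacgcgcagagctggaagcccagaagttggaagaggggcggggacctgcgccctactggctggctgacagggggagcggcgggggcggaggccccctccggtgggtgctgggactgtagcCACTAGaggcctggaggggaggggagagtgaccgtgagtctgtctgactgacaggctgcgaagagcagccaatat
Notch2, chr3:98013288-98013537, plus strand: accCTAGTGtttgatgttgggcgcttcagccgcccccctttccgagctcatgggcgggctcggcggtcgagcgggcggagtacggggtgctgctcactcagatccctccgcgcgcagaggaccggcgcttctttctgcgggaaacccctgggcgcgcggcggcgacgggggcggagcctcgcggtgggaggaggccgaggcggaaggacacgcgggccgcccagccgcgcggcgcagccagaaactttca
Notch3, chr17:32166891-32167140, minus strand: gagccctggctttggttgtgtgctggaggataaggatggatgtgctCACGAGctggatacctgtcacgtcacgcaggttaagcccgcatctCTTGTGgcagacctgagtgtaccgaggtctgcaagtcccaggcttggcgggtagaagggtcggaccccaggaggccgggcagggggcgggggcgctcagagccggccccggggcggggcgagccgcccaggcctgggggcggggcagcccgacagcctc
Notch4, chr17:34564045-34564294, plus strand: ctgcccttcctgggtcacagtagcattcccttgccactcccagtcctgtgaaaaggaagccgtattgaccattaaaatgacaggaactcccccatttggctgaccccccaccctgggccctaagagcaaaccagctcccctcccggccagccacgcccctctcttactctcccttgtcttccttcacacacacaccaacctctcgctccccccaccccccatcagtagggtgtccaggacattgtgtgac
An N box was present upstream of 4 of the 8 members, Notch1, Notch2, Notch3 and Dll4, and in 36.7% of all 32851 windows of the same length. The N box of Dll4 began 75 bases before the start and that of Notch2 began 247 bases before it. Notch3 held 2 N boxes, which began 204 and 159 bases before the start. The core of the RBPJ site, TGGGAA or TTCCCA, was searched in the same way. It was present in 0 of the 9 windows of the members, and so overlapped no N box there, and in 21.6% of all windows. These are matches of letters in a short window, with no measurement of binding.

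The comparison of TNF+ with TNF- lungs asked whether the transgene changed the level of these genes. Of the 10 members, 7 were lower in TNF+ lungs, 1 was higher, and 2 did not pass the test (edgeR's quasi-likelihood test, Benjamini-Hochberg adjusted p under 0.05 over all 19199 genes tested). The gene that rose was Notch2. The genes that fell were Notch1, Notch3, Notch4, Dll1, Dll4, Hey1 and Hes1, and the genes that did not pass were the Jagged ligands Jag1 and Jag2. Of all genes tested, 47.4% passed in either direction, 24% as higher and 23.4% as lower, so the test called a large part of the transcriptome and the 7 of 10 that fell are to be read against 23.4%. The median log2 fold change of the members was -0.75, against 0.03 for all genes tested. In all 10 members the 3 TNF+ lungs and the 3 TNF- lungs did not overlap in normalized counts, as in 58.7% of all genes tested (30.5% as higher and 28.2% as lower). A log2 fold change below 0, whatever its p, was found for 9 of the 10 members and for 47.7% of all genes tested. The counts of called members were the same, 7 lower and 1 higher, without TNF- replicate 1, without TNF+ replicate 1 and without both.

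**Figure D1:**
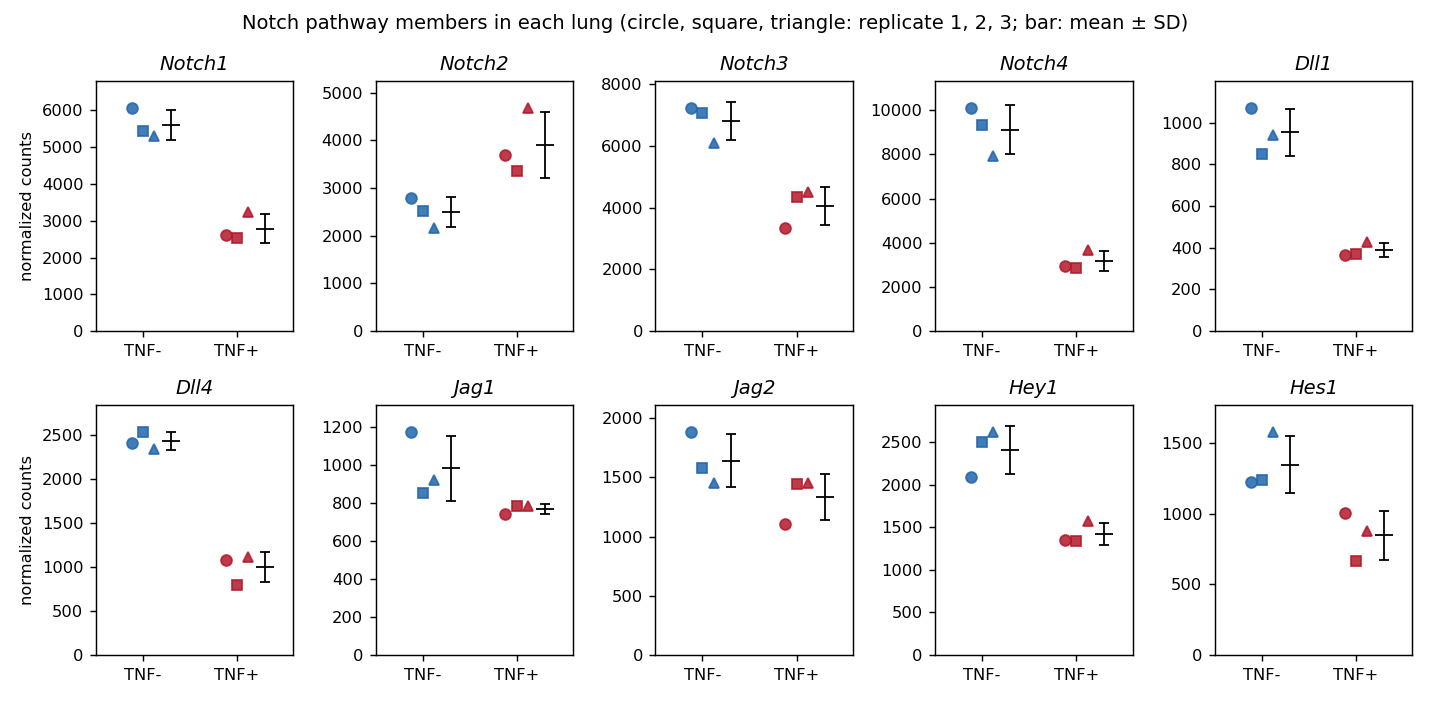
Normalized counts (vertical axes, from 0) of the 10 members in the 3 TNF- lungs (blue) and the 3 TNF+ lungs (red), with symbols for replicates 1, 2 and 3 and the mean ± SD beside them. Notch2 is the only panel in which the TNF+ lungs lie above the TNF- lungs, and in the panel of Jag2 the groups nearly touch, at 1453 and 1456 normalized counts.

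The receptors are the single-pass membrane proteins that are cut and carry the signal to the nucleus. Notch4 (ENSMUSG00000015468.14, chromosome 17 of mm10, 34564268 to 34588503, plus strand), the receptor best known from endothelium, fell most of the 10 members. Its normalized counts were 2948, 2850 and 3678 in TNF+ lungs and 10101, 9338 and 7901 in TNF- lungs. Even the highest TNF+ lung was well under the lowest TNF- lung. The means were 3159 ± 452 and 9113 ± 1117 (SD, n = 3), a 2.88-fold lower level in the fitted model (log2 fold change -1.53, standard error or SE 0.14, adjusted p = 9.74e-05 by edgeR). Of all genes tested, 6.64% were called lower with a log2 fold change as low as that of Notch4.

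Notch1 (ENSMUSG00000026923.15, chromosome 2, 26457903 to 26516663, minus strand), which acts in endothelium, lymphocytes and epithelia, had 2609, 2524 and 3231 normalized counts in TNF+ lungs and 6069, 5445 and 5299 in TNF- lungs. The level in TNF+ lungs was 2.01-fold lower (log2 fold change -1.01, SE 0.12, adjusted p = 0.000384 by edgeR). The highest TNF- lung was replicate 1, the library with squamous and skeletal muscle transcripts, and without it the log2 fold change was -0.97 (adjusted p = 0.00143 by edgeR). Notch3 (ENSMUSG00000038146.8, chromosome 17, 32120820 to 32166852, minus strand), the receptor of vascular smooth muscle and pericytes, had 3350, 4327 and 4496 normalized counts in TNF+ lungs against 7227, 7057 and 6093 in TNF- lungs. The fitted level was 1.67-fold lower (log2 fold change -0.74, SE 0.14, adjusted p = 0.00294 by edgeR).

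Notch2 (ENSMUSG00000027878.11, chromosome 3, 98013527 to 98150361, plus strand), which in the immune system is needed for marginal zone B cells and for some monocytes and dendritic cells, moved the other way. Its normalized counts were 3683, 3356 and 4681 in TNF+ lungs and 2800, 2516 and 2163 in TNF- lungs, with the lowest TNF+ lung above the highest TNF- lung. The means were 3907 ± 691 and 2493 ± 319 (SD, n = 3), a 1.57-fold higher level in the fitted model (log2 fold change 0.65, 95% interval 0.30 to 0.99, adjusted p = 0.00857 by edgeR). Of all genes tested, 16.1% were called higher with at least this log2 fold change. TNF+ replicate 3 held the highest level of all 4 receptors within its group, and without it the log2 fold change of Notch2 was 0.48 (adjusted p = 0.0199 by edgeR).

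The Delta-like ligands, which activate receptors on neighboring cells, both fell. Dll4 (ENSMUSG00000027314.6, chromosome 2, 119325784 to 119335962, plus strand), the ligand of arterial endothelium and sprouting tip cells, had 1079, 797 and 1110 normalized counts in TNF+ lungs and 2406, 2537 and 2341 in TNF- lungs. The TNF- lungs were close together and each was more than 2 times the highest TNF+ lung. The fitted level was 2.44-fold lower (log2 fold change -1.29, SE 0.13, adjusted p = 0.000161 by edgeR). Dll1 (ENSMUSG00000014773.13, chromosome 17, 15367354 to 15376872, minus strand), a ligand of arterial endothelium and of stromal niches for Notch2-dependent immune cells, had the lowest mean normalized counts of the members in both groups. These counts are not scaled by length, and per kilobase Jag1 was lower than Dll1 in TNF- lungs. The normalized counts of Dll1 were 367, 372 and 427 in TNF+ lungs and 1070, 848 and 941 in TNF- lungs. It fell by nearly the same amount as Dll4, with a 2.45-fold lower fitted level (log2 fold change -1.29, SE 0.13, adjusted p = 0.000128 by edgeR).

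The Jagged ligands changed less than their error allowed to call. Jag1 (ENSMUSG00000027276.7, chromosome 2, 137081456 to 137116644, minus strand), a ligand of endothelium, smooth muscle and airway basal cells, had 741, 784 and 784 normalized counts in TNF+ lungs and 1177, 853 and 920 in TNF- lungs. The groups did not overlap, but the TNF- lungs spread widely, with replicate 1 far above the other two, and the log2 fold change of -0.35 (95% interval -0.66 to -0.05) had an adjusted p of 0.0577 by edgeR. Without TNF- replicate 1 it was -0.23 (adjusted p = 0.142 by edgeR), while without TNF- replicate 2 it was -0.45 and passed (adjusted p = 0.0387 by edgeR). Jag1 also passed with DESeq2 (adjusted p = 0.0321), with the size factors of DESeq2 in edgeR (adjusted p = 0.0423) and with a robust dispersion in edgeR (adjusted p = 0.0489). Jag2 (ENSMUSG00000002799.6, chromosome 12, 112907819 to 112929776, minus strand), a ligand found in endothelium and airway basal cells, had 1110, 1444 and 1453 normalized counts against 1887, 1578 and 1456, and the log2 fold change of -0.30 had an interval from -0.62 to 0.03 (95%; adjusted p = 0.117 by edgeR). The interval of Jag2 holds both a moderate fall and no change.

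Both target genes were lower. Hey1 (ENSMUSG00000040289.8, chromosome 3, 8663359 to 8667256, minus strand), a transcriptional repressor of endothelium and smooth muscle, had 1355, 1343 and 1576 normalized counts in TNF+ lungs and 2087, 2508 and 2626 in TNF- lungs. Its fitted level was 1.69-fold lower (log2 fold change -0.76, SE 0.12, adjusted p = 0.00121 by edgeR). Hes1 (ENSMUSG00000022528.8, chromosome 16, 30064384 to 30067796, plus strand), a repressor that also restrains its own gene and in the airway favors secretory over neuroendocrine fate, had 1005, 663 and 879 normalized counts against 1223, 1237 and 1583. Hes1 varied more from lung to lung than Hey1 within the TNF+ group, and its log2 fold change was -0.67 (SE 0.17, adjusted p = 0.013 by edgeR). With each lung left out in turn, Hes1 stayed between -0.84 and -0.52 and Hey1 between -0.87 and -0.69.

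**Figure D2:**
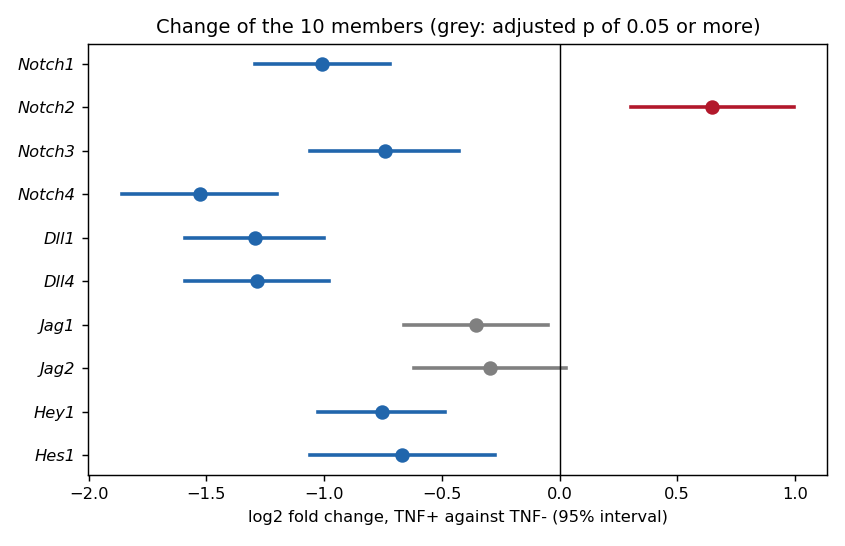
Log2 fold change of the 10 members between TNF+ and TNF- lungs (horizontal axis), with the 95% interval as a line. The intervals of Notch1, Notch3, Notch4, Dll1, Dll4, Hey1 and Hes1 (blue, lower) lie below 0, that of Notch2 (red, higher) lies above 0 at 0.30 to 0.99, and Jag1 and Jag2 (grey) had an adjusted p of 0.05 or more.

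Per length, as normalized counts per kilobase of all annotated exons of a gene merged, the receptors of TNF- lungs ranked in the order Notch4 (1130 ± 139), Notch3 (840 ± 75.6), Notch1 (394 ± 28.7) and Notch2 (231 ± 29.6; SD, n = 3), and each was separate from the next over the 3 lungs. In TNF+ lungs the order was Notch3 (502 ± 76.5), Notch4 (392 ± 56.1), Notch2 (362 ± 64.0) and Notch1 (196 ± 27.1). There the upper 3 receptors were not separate from their neighbors, and Notch1 lay below all of them. Among ligands of TNF- lungs Dll4 led with 630 ± 25.9 normalized counts per kilobase, followed by Jag2 (236 ± 31.9), Dll1 (226 ± 26.4) and Jag1 (169 ± 29.4), of which each overlapped with the next. In TNF+ lungs Dll4 (258 ± 44.7) overlapped with Jag2 (192 ± 28.0), and Jag1 (132 ± 4.23) and Dll1 (92.1 ± 7.87) were separate from both. Hey1 and Hes1 overlapped in both groups, at 737 ± 86.8 and 662 ± 99.9 in TNF- lungs and at 436 ± 40.2 and 417 ± 84.9 in TNF+ lungs.

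The make-up of the receptor and ligand messages differed between the groups. As a share of the summed receptor level per kilobase, Notch2 made up 26.2%, 22.6% and 25.9% in TNF+ lungs and 9.17%, 8.82% and 8.70% in TNF- lungs. Notch4 made up 28.0%, 25.7% and 27.3% against 44.2%, 43.8% and 42.5%. The share of Notch1 was a little lower, at 13.5 ± 0.589% against 15.2 ± 0.856% (SD, n = 3), and the share of Notch3 overlapped between the groups (34.6 ± 3.75% against 32.4 ± 0.748%), with a difference of 2.21 percentage points that was 3.64 without TNF+ replicate 1 and 0.0922 without TNF+ replicate 2. Among the ligands, the share of Dll4 was 38.2 ± 5.27% in TNF+ and 50.1 ± 3.64% in TNF- lungs, and that of Dll1 was 13.7 ± 0.309% against 17.9 ± 1.38%. The Jagged ligands held correspondingly more, Jag2 with 28.5 ± 4.07% against 18.6 ± 1.31% and Jag1 with 19.6 ± 1.39% against 13.3 ± 1.54%. In 7 of the 8 shares the groups did not overlap (exact two-sided permutation test, p = 0.1 for each, the smallest that 3 lungs against 3 allow, and 0.114 after Benjamini-Hochberg adjustment over the 8 shares). Shares of a sum are tied, so that a rise of Notch2 lowers the others and a fall of the others raises Notch2. The summed level of the receptors other than Notch2 was 2.17-fold lower in TNF+ lungs (1089 ± 139 against 2364 ± 237 normalized counts per kilobase). Both Jagged ligands gained share without a higher mean level of their own. The summed level of all 4 receptors was 1.79-fold lower in TNF+ lungs (1452 ± 195 against 2595 ± 267 normalized counts per kilobase), and the summed ligand level was 1.87-fold lower (674 ± 51.0 against 1261 ± 80.6; SD, n = 3).

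**Figure D3:**
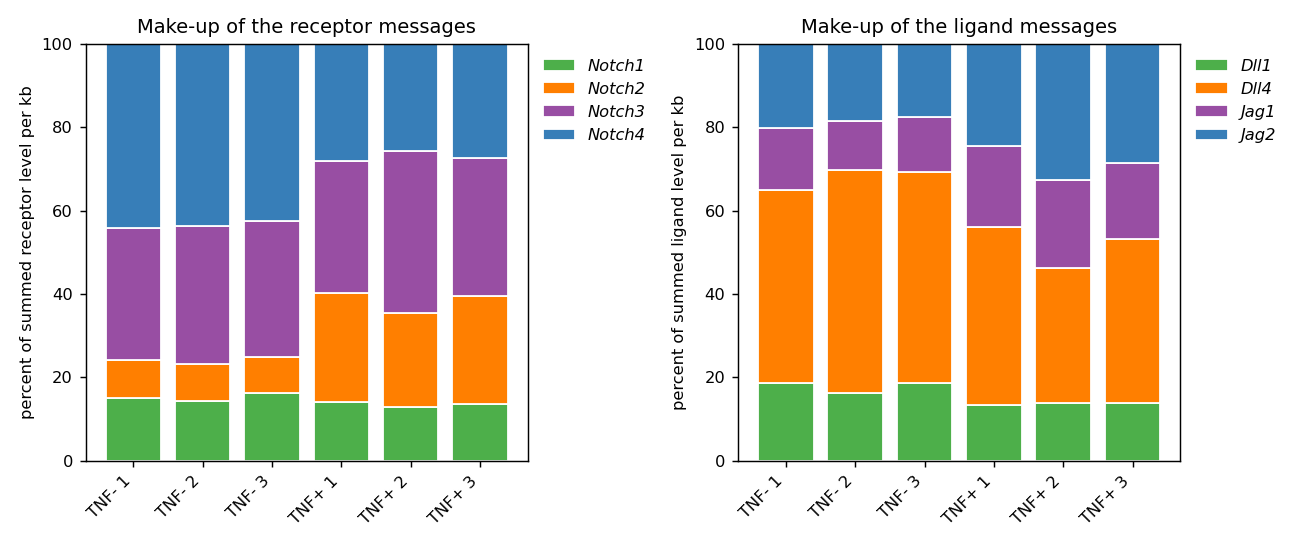
Shares of the 4 receptors (left) and the 4 ligands (right) in the summed level per kilobase, in percent, with a bar for each of the 3 TNF- and 3 TNF+ lungs. The Notch2 band (left, orange) widens from 8.89% to 24.9% on average and the Notch4 band (left, blue) narrows, while the Dll4 band (right, orange) gives way to Jag1 and Jag2.

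Markers of several cell types moved with the members. In bulk lung, fewer cells of a type and less RNA per cell cannot be told apart. Of 12 pan-endothelial markers, 11 were lower in TNF+ lungs, and their summed level was 2054 to 2382 CPM in TNF+ and 4080 to 4996 CPM in TNF- lungs. Pecam1, the most abundant of them, had a log2 fold change of -0.56, and Emcn, named after its value was seen, was the exception (log2 fold change 0.93). Of 8 capillary endothelial markers 7 were lower, with a sum of 458 to 548 against 1295 to 1476 CPM. Of 6 arterial markers 3 were lower and 3 did not pass. Their sums overlapped (939 to 1085 and 987 to 1102 CPM), but Mgp, which did not pass, held 68.0% to 82.5% of them, and the sums of the other 5 genes did not overlap (172 to 190 against 302 to 349 CPM, 1.77-fold lower). Of 8 smooth muscle markers 6 were lower (663 to 689 against 1143 to 1363 CPM), and of 8 pericyte markers 2 were lower and 2 higher (345 to 434 against 354 to 454 CPM). Of 8 lung epithelial markers 7 were lower (16707 to 21902 against 34145 to 41380 CPM), and all 8 cardiac muscle markers were lower (334 to 409 against 1166 to 1542 CPM). All 8 myeloid markers rose, with a summed level of 10756 to 11865 CPM in TNF+ and 2927 to 2989 CPM in TNF- lungs, and 6 of 8 lymphocyte markers rose (2280 to 4500 against 126 to 355 CPM). The most abundant gene weighed heavily in both sums: without Lyz2 the myeloid sum was 3649 to 5600 against 359 to 401 CPM, and without Jchain the lymphocyte sum was 479 to 656 against 99.8 to 177 CPM. No marker of these lists was at 0 in every lung. The part of these cells in the change of any member was not tested.

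Set against the endothelial level of the same lung, the members split. The mean log2 CPM of the 12 pan-endothelial markers was 7.16 in TNF+ and 8.14 in TNF- lungs, a difference of -0.98. Relative to it, Notch1 stood at -0.68, -0.68 and -0.55 on the log2 scale in TNF+ lungs and at -0.57, -0.69 and -0.56 in TNF- lungs, so that the groups overlapped and the means differed by -0.03. Notch4 was lower also on this scale, at -0.50, -0.50 and -0.37 against 0.17, 0.09 and 0.01, a difference of -0.55. Dll4 and Dll1 were lower by smaller differences of -0.32 and -0.30, without overlap. Hey1 and Hes1 overlapped, with differences of 0.23 and 0.31, and so did Notch3 with 0.23. These values moved with single lungs: Notch3 was at 0.13 without TNF+ replicate 2 and no longer overlapped without TNF+ replicate 1 (0.34) or without TNF- replicate 2 (0.24), Hey1 was at 0.091 without TNF- replicate 1 and at 0.36, without overlap, when TNF- replicate 3 was left out, and Hes1 was at 0.15 without TNF+ replicate 1, at 0.20 without TNF- replicate 1 and at 0.49, without overlap, when TNF- replicate 3 was left out. Dll4 was at -0.21 without TNF+ replicate 2. Jag1 and Jag2 lay above, with differences of 0.64 and 0.68, and Notch2 with 1.62, again without overlap. The groups did not overlap for 6 of the 10 members (exact two-sided permutation test, p = 0.1 for each, the smallest possible, and 0.167 after Benjamini-Hochberg adjustment over the 10). On this scale 81.5% of all genes tested had groups without overlap, 75.8% as higher and 5.69% as lower, since the endothelial mean itself fell, and 3 members, Notch4, Dll1 and Dll4, were lower without overlap. The 12 markers moved unequally, with log2 fold changes from -2.07 to 0.93, and the -1.53 of Notch4 lay within this range. The highest, 0.93, was that of Emcn, which counts in the mean. A mean without Emcn was not tried, so whether Dll1, Dll4 and Notch1 keep their place on it was not tested.

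**Figure D4:**
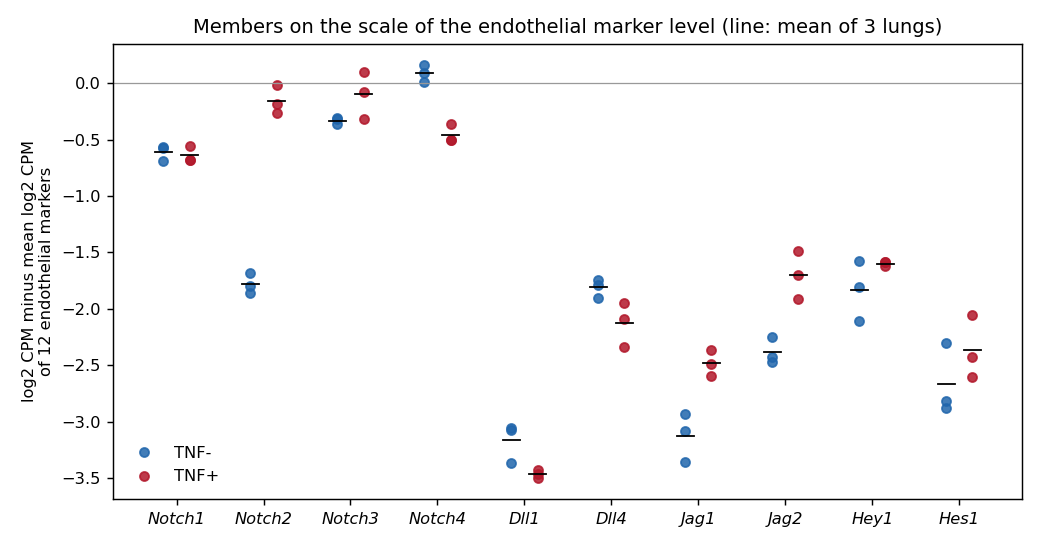
Log2 CPM of each member minus the mean log2 CPM of the 12 pan-endothelial markers in the same lung (vertical axis), for 3 TNF- lungs (blue) and 3 TNF+ lungs (red), with the mean of each group as a line. Notch4, Dll1 and Dll4 are lower in TNF+ lungs, Notch1, Notch3, Hey1 and Hes1 overlap, and Notch2, Jag1 and Jag2 are higher.

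Among 162 genes of the wider pathway and marker lists, the gene whose centered log2 CPM over the 6 lungs lay closest to a member was Esam, an endothelial adhesion molecule, for Notch1 (root mean square difference 0.08), Cspg4, a pericyte proteoglycan, for Notch3 (0.12) and Sema3c, of the capillary list, for Notch4 (0.11). Notch2 lay closest to the protease Adam10 (0.14). Dll4 lay closest to Nrarp (0.07), Dll1 to Numb (0.13), Jag1 to the corepressor Ctbp2 (0.07) and Jag2 to the fucosyltransferase Pofut1 (0.11). Hey1 lay closest to the arterial connexin Gja4 (0.10) and Hes1 to the glycosyltransferase Rfng (0.15). These distances on the log2 scale are a description over 6 lungs that fall into 2 groups.

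Beyond the members, 66 genes of the pathway were listed by role. Of these, 62 were tested and 4 (Dll3, Dlk2, Hes3 and Hes5) did not pass the filter on low counts. In TNF+ lungs 12 were higher, 20 were lower and 30 did not pass the test, a total near the share of all genes tested that passed (47.4%), and their median log2 fold change was -0.15. The counts by role that follow come from short lists and are to be read against the 24% of all genes tested that were called higher and the 23.4% called lower, and none was tested as a list.

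Proteases that cut the receptor were among the genes that rose. Adam17, the TNF-converting enzyme that also sheds Notch receptors, rose from 1104 ± 118 to 3150 ± 359 normalized counts (SD, n = 3), which is 1.51 on the log2 scale (adjusted p = 4.56e-05 by edgeR). Adam10, the protease of ligand-bound Notch, rose by 0.58 on the log2 scale (adjusted p = 0.00372 by edgeR). The remaining gene of this role did not pass the test. Of 7 gamma-secretase subunits 3 rose and 0 fell, a number called that is near the share of all genes tested that passed in either direction (47.4%; 24% as higher). The largest rises were those of the catalytic subunit Psen2 (0.85 on the log2 scale, adjusted p = 0.00164 by edgeR) and Aph1c (0.60). The third, Ncstn, named after its values were seen, passed only narrowly (adjusted p = 0.0392 by edgeR) and was lost in 5 of the 6 fits that left out a lung, all but that without TNF+ replicate 1. Of 6 enzymes that glycosylate receptors and ligands 4 fell (23.4% of all genes tested), most of all Rfng (-0.85 on the log2 scale, adjusted p = 0.000691 by edgeR) and Eogt (-0.65). Without TNF- replicate 2 this count was 2, as Poglut1 and Mfng no longer passed. Poglut1 was also lost without TNF+ replicate 2 or TNF+ replicate 3. Of 4 ubiquitin ligases that act on ligands 2 passed, near the 47.4% of all genes tested, and both fell, Neurl1a (log2 fold change -1.06) and Mib2 (-0.61).

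Of 11 genes for receptor endocytosis and turnover 3 rose and 4 fell (24% and 23.4% of all genes tested), and the number that fell was 2 without TNF+ replicate 2 or without TNF- replicate 2. Numb, an inhibitor that sends the receptor to endosomes, fell from 3735 ± 290 to 1585 ± 91.0 normalized counts (SD, n = 3; -1.24 on the log2 scale, adjusted p = 4.56e-05 by edgeR), and Dtx1 had a log2 fold change of -0.59, whereas the related Deltex genes Dtx4 and Dtx2 rose by 1.27 and 0.72 on the log2 scale. Rbpj, the DNA-binding partner of the cut receptor, had 3691, 3384 and 3438 normalized counts in TNF+ lungs and 2238, 2259 and 1938 in TNF- lungs. Every TNF+ lung was above every TNF- lung (log2 fold change 0.71, SE 0.10, adjusted p = 0.000724 by edgeR) and was the only called gene of the 9 in the activation complex that rose, as Maml3 (-0.60) and Maml2 (-0.34) fell. Of 13 corepressor genes 3 rose, near the 24% of all genes tested, and 5 fell (23.4% of all genes tested), with Cir1 (0.74) and Tle3 (0.68) the largest rises and Tle1 (-1.17) and Tle2 (-1.12) the largest falls. The calls of Dtx1, Maml2 and Maml3 depended on the lungs included: without TNF+ replicate 2 none of them passed. Dtx1 was also lost without TNF+ replicate 3, TNF- replicate 2 or TNF- replicate 3, which makes 4 of the 6 lungs, and Maml2 without TNF+ replicate 3 or TNF- replicate 1.

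Of the 7 tested target genes outside the members 3 fell and 0 rose, a number called that is near the same share of all genes tested (47.4%; 23.4% as lower). Nrarp, a feedback inhibitor that binds the Notch intracellular domain, had 534, 396 and 494 normalized counts in TNF+ lungs against 1136, 1264 and 1222 in TNF- lungs (log2 fold change -1.35, SE 0.13, adjusted p = 0.000112 by edgeR). The groups were far apart and each was tight. Hes2 had 4, 6 and 7 raw counts in TNF+ lungs, close to the smallest detectable level, and 99, 85 and 76 in TNF- lungs (-3.71 on the log2 scale, adjusted p = 4.42e-05 by edgeR). It passed the filter on low counts through the TNF- lungs only, so that with at least 10 counts required in every lung it was not tested and 2 target genes were left that fell. Efnb2, an arterial ephrin named after its values were seen, fell by 0.92 on the log2 scale (adjusted p = 0.00188 by edgeR). Heyl, a target in smooth muscle and pericytes, had 1388, 1165 and 1573 normalized counts against 1456, 1618 and 1344, with overlapping groups and a log2 fold change of -0.10 (adjusted p = 0.558 by edgeR). Hey2, a target in arterial and smooth muscle cells, had 121, 120 and 91.6 against 98.4, 83.4 and 85.3 (log2 fold change 0.31, adjusted p = 0.228 by edgeR).

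**Figure D5:**
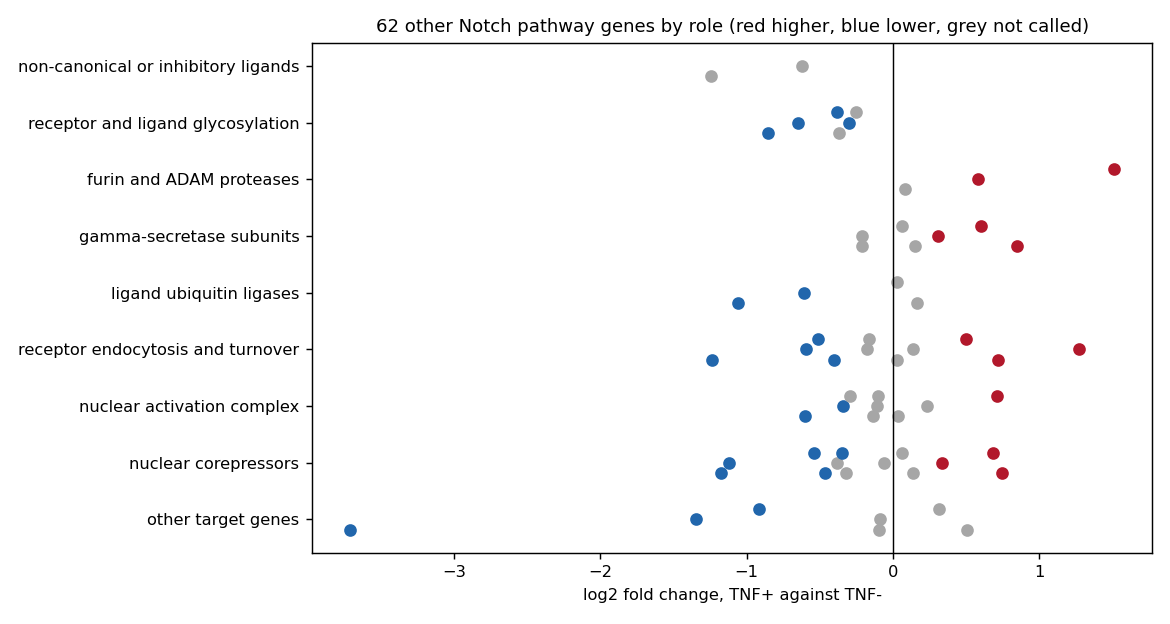
Log2 fold change between TNF+ and TNF- lungs (horizontal axis) of the 62 tested genes of the wider pathway, a point for each gene and a row for each role, with genes higher in TNF+ lungs in red, lower in blue and not called in grey. Called proteases and gamma-secretase subunits lie to the right of 0, called glycosylation enzymes, ligand ubiquitin ligases and other targets lie to the left, and the other roles with called genes hold both.

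Read sharing was low for the members. None of their 100-base transcript windows occurred in another gene for Notch4, Jag1, Jag2, Hey1 and Hes1 (0%), and no window of any member occurred in another member. In Dll1, 11.3% of the windows occurred also in the antisense lincRNA A930024N18Rik, which had 22 to 68 counts per lung, and in Notch1 8.44% occurred in 0610009E02Rik and Gm13568 on the other strand, with up to 39 counts. Fewer windows were shared in Notch3 (3.61%, with Gm17276, up to 6 counts), Dll4 (3.06%, with Gm14207, 35 to 120 counts) and Notch2 (2.37%, with Gm42820, up to 13 counts). The strand setting of the counting is not given in the sources used here, so reads of such pairs may have been lost or assigned to either gene.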

How the data were processed

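RNA from whole lungs of 3 TNF+ and 3 TNF- mice was sequenced, each library from its own mouse, and total counts were 25396923 to 32529408 per lung. Per the labels and the submitters' processing notes, poly(A) libraries were stranded and single-end, and the authors trimmed reads with Trimmomatic (version 0.36 in the notes), mapped them with STAR (version 2.5.2b) to GRCm38.p5 (mm10) and used featureCounts. The deposited table gives raw read counts by gene symbol for each lung, not normalized. The strand setting and annotation of the counting are not given in the sources used here.

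In edgeR (version 4.0.16, under R version 4.3.3), genes were filtered by filterByExpr, libraries were scaled by TMM, and a quasi-likelihood test of genotype alone was run on all genes, with p adjusted after Benjamini-Hochberg and a threshold of 0.05. SE was the size of the log2 fold change over the root of F. To obtain normalized counts, each count was scaled to the mean TMM-adjusted library total. A prior count of 2 was added for log2 CPM. Lengths and positions are from GENCODE M21. Exact permutation tests used scipy (version 1.17.1), and the programs were tested on simulated data. Replicates differed by far more than sampling noise (chi-square per degree of freedom 53.7 to 140).

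Other settings tried were DESeq2 (version 1.42.0), limma-voom (limma version 3.58.1), other scalings and filters, a robust dispersion, a replicate block, a minimum log2 fold change, left-out lungs, and for shares and endothelial-relative values another gene length, marker list or prior count. Leaving the most abundant gene out of each marker sum was added after seeing the data. The members and gene lists were chosen with earlier results of these data known. Named were the members, of each role of the wider list up to 2 called genes with the largest rise and 2 with the largest fall, Rbpj, Heyl, Hey2 and Nrarp, the most abundant gene of marker lists where a list is discussed by gene, and the gene closest to each member. Other genes, such as Tnf, Gm42418, Emcn and Efnb2, were chosen after their values were seen. No deposited column was left out.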

Additional observations from a re-analysis of the deposited data

How the results depend on the processing

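When a log2 fold change of at least 1 in size was required, 4 members were called (Notch1, Notch4, Dll1 and Dll4, all lower), as were 8 genes of the wider list and 4320 of all genes. Under the other alternatives, 8 or 9 members, 22 to 33 genes of the wider list and 6064 to 9164 of all genes were called, and a ninth member was always Jag1. With each lung left out in turn, 8 or 9 members, 24 to 32 genes of the wider list and 7347 to 9164 of all genes were called. The direction of every member held in the 15 alternative fits. Jag2 passed in none of them (adjusted p 0.0674 to 0.611 with edgeR, DESeq2 and limma-voom). Relative to the endothelial markers, Notch1 turned from a difference of -0.03 to 0.0094 without replicate 1 of both groups, and lay between -0.071 and -0.0081 with single lungs left out. With Pecam1 and Cdh5 as the only markers, the differences of Notch1, Notch3 and Hey1 were -0.15, 0.11 and 0.11 in place of -0.03, 0.23 and 0.23, and that of Hes1 was 0.19 in place of 0.31. Without replicate 1 of both groups that of Hey1 was 0.10 and that of Hes1 0.047. The count of shares without overlap was 7 or 8 and that of endothelial-relative members 6 to 8. No scaling moved the median of all genes by over 0.1 on the log2 scale. The replicate numbers are shared by label only. Same-numbered lungs did not deviate together (correlations across genes -0.24 to -0.004), and with the replicate block 7686 genes, 8 members and 26 genes of the wider list were called. Of the wider list, the block lost Poglut1, Ncstn, Dtx1, Aak1, Maml2 and Ctbp2. Of the corepressors, Ctbp2 and Kdm5a were each lost with 5 of the 6 lungs left out in turn. With 3 lungs a group, p-values of the permutation tests cannot go below 0.1. The members had 278 counts or more in every lung, well above the smallest detectable level, and the effect of depth on their calls was not tested.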
